A study of Mus musculus with 12 samples.

Results

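The genes described here are the nuclear genes of the mitochondrial ribosome that carry the symbols Mrpl or Mrps and a number, in rod photoreceptors and retinas of mice with or without the phosphatase Shp2 in rods. They were selected by symbol alone, with pseudogene copies left out, which gave 78 of the 56748 genes in the deposited table. Of these, 51 encode proteins of the large subunit, 26 encode proteins of the small subunit, and Mrps36, despite its name, encodes a component of the 2-oxoglutarate dehydrogenase complex. Mrps18a and Mrps30 were counted with the large subunit, where their proteins sit.

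Mitochondria keep a ribosome of their own, which translates the few membrane proteins of oxidative phosphorylation that are still encoded by mitochondrial DNA. Its RNAs come from mitochondrial DNA, whereas all of its proteins are made in the cytosol from nuclear genes and imported, so that both genomes have to supply it. Many of its proteins have a counterpart in the bacterial ribosome and others are found in mitochondria only. Rods pack their mitochondria into the inner segment and are among the cells with the highest need for ATP, spent largely on ion pumping.

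The study used 2-week-old mice that carried RiboTag, a floxed allele of the ribosomal protein gene Rpl22 that gains an HA tag after Cre acts, and i75-Rod-Cre, a Cre driven by the rhodopsin promoter. The controls (Het) had 1 floxed Shp2 allele (Shp2fl/+) and therefore also lost 1 copy in rods, and the knockouts (KO) had both alleles floxed (Shp2fl/fl). Polyadenylated RNA was sequenced from whole retina and from translating ribosome affinity purification (TRAP) of rod ribosomes, with 3 libraries in each of the 4 groups. No label says that the 3 libraries of a group came from different mice, so that the p-values measure the spread between these libraries, which may be technical. In these bulk samples, fewer cells of a type and less RNA per cell cannot be told apart.

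The targeted gene was not strongly reduced in the table. Ptpn11, which encodes Shp2, stood at deposited values of 2511, 2439 and 2431 in rods of Het mice against 1735, 2139 and 1971 in those of KO mice, a log2 fold change of -0.23 (SE 0.09, limma adjusted p = 0.078). All 3 KO rod values lay below the Het rod values, and the gene has 1 value per library, so that reads from the floxed part were not seen apart from the others. The retina libraries, with 2390, 2512 and 2125 for Het and 2205, 2147 and 2466 for KO, overlapped.

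The deposited values are whole numbers that add up to nearly the same total in every library of a fraction, that is, read numbers scaled by 1 factor per library and rounded. The estimated reads behind them ranged from 9980000 to 19230000 in 5 retina libraries and from 11890000 to 25280000 in the rod libraries, and 3 reads, the floor used here, were at most 3.0e-05% of a library, which covers counting error only. All 12 markers of rods were higher in rod TRAP than in retina in both genotypes, with a median log2 fold change of 1.85 in Het. Summed values of 10 Müller glia markers were 54610 to 87142 in retina and 2175 to 3685 in rods, and those of 9 bipolar cell markers 16687 to 18179 in retina and 3505 to 5383 in rods. Markers of cones were less depleted, with 9 of them summing to 15362 to 19055 in retina and 5453 to 8515 in rods. Their median log2 fold change was -1.05 in Het and -0.78 in KO mice, against -4.82 and -4.43 for Müller glia. Of all the markers listed for other cell types, Onecut1, C1qc, Cldn5 and Cdh5 were at 0 in all Het rod libraries and Aif1 in all KO rod libraries. Lens transcripts set libraries apart, since 7 lens markers summed to between 111 and 743343 in retina and between 4 and 12568 in rods. Their part in the results was not tested.

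Some promoters of these genes carry the short motifs of factors that are known to drive nuclear genes for mitochondria. The RefSeq promoter table for build GRCm38.p6 had an entry for 69 of the 78 genes, and the 250 bases before the start were searched on both strands for the core of ETS-family sites, CCGGAAG, the core of sites of nuclear respiratory factor 1 (GCGCA, any base, GCGC), the YY1 core AAGATGGCG and the TATA box TATAAA. No motif found in these promoters overlapped another. The ETS core was in 17 of the 69 promoters (24.6%), against 13.2% of the promoters of genes tested in rods and retina and 7.05% of all promoters. The nuclear respiratory factor core was in 10 (14.5%), against 8.02% and 3.86%, the YY1 core in 2, and the TATA box in 4 (5.80%) against 6.27% and 13.0%.

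Promoters of 4 genes whose values are described below are shown as examples, from 250 bases before the start to the base before it, read 5′ to 3′ on the gene's strand, with the motif matches in capitals. The sequence of Mrpl43 (chr19:45006443-45006692, minus strand) holds 2 ETS cores, the second 12 bases before the start, and that of Mrps22 (chr9:98601680-98601929, minus strand) holds 1 at 11 bases. The sequence of Mrpl45 (chr11:97315466-97315715, plus strand) holds 2 nuclear respiratory factor cores, and that of Mrpl12 (chr11:120484387-120484636, plus strand) holds 1 on the other strand, 81 bases before the start. A match is a description of letters, not a sign that a factor binds.
Mrpl43: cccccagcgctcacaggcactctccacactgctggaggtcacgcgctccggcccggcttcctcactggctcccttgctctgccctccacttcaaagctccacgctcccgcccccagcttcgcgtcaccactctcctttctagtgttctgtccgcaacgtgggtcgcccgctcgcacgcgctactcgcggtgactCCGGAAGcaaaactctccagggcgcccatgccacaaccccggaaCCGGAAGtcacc
Mrps22: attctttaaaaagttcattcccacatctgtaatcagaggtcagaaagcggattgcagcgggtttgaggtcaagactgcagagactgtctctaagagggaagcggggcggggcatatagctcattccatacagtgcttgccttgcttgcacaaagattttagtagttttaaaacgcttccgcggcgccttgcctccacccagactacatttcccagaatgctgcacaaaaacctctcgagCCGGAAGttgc
Mrpl45: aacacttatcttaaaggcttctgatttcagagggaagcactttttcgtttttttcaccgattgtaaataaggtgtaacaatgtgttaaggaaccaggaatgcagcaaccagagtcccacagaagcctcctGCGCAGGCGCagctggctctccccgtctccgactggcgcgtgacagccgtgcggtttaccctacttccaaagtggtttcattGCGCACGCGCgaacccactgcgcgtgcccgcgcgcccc
Mrpl12: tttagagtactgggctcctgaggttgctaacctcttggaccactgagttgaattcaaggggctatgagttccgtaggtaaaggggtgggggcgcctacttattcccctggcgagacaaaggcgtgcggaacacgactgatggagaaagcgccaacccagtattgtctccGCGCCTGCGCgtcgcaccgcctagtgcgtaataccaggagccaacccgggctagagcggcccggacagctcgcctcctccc

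Mitochondrial ribosomal protein mRNAs were a small and steady part of the RNA. Together the 78 genes took 0.196% ± 0.0092 (SD, n = 3) of the library total in Het retina, 0.195% ± 0.0051 in KO retina, 0.214% ± 0.0060 in Het rods and 0.208% ± 0.0069 in KO rods. The shares of the rod libraries, 0.203% to 0.219%, lay above those of the retina libraries of the same genotype. Mitochondrially encoded transcripts made up 5.52% to 9.88% of the retina libraries and 0.047% to 0.088% of the rod libraries, and with them left out of the totals the shares were 0.205% to 0.218% in retina and 0.203% to 0.219% in rods, which overlap.

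Set against the length of the transcript, single genes differed far more than the fractions did. Levels per length are given as the deposited value per kilobase of the longest annotated transcript at a library total of 1000000. Mrpl49, a large-subunit protein with no bacterial counterpart, had the highest level in all 4 groups. It reached 154 ± 1.87 (SD, n = 3) per kilobase in Het rods and 74.8 ± 3.65 in Het retina. Mrpl42 at 67.8 ± 1.91 and Mrpl20 at 59.2 ± 5.08 followed in Het rods, and these 3 genes did not overlap in that group.

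At the low end of the genes past the filter in Het rods stood Mrpl57, a mitochondria-specific protein of the large subunit, at 2.52 ± 0.48 per kilobase and Mrps26 at 2.89 ± 0.54, which did not differ beyond their spread. Below the filter lay Mrps34, a small-subunit protein whose gene had deposited values from 0 to 8 in the 12 libraries (0.089 ± 0.10 per kilobase in Het rods). Mrpl53 was listed at 0 in all 12. Most of the exon bases of both are shared with other genes in the annotation, 88.0% in Mrpl53 and 77.8% in Mrps34. Gm42688, on the same strand as Mrpl53, had values of 14 to 40, and Mapk8ip3, which covers 63.4% of the exon bases of Mrps34 from the opposite strand, had values of 632 to 2653. How the authors' counting treated such shared bases is not given in the sources used here. The other 76 genes had values high enough to be tested, and 16 of them share at least 10% of their exon bases with another gene.

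**Figure D1:**
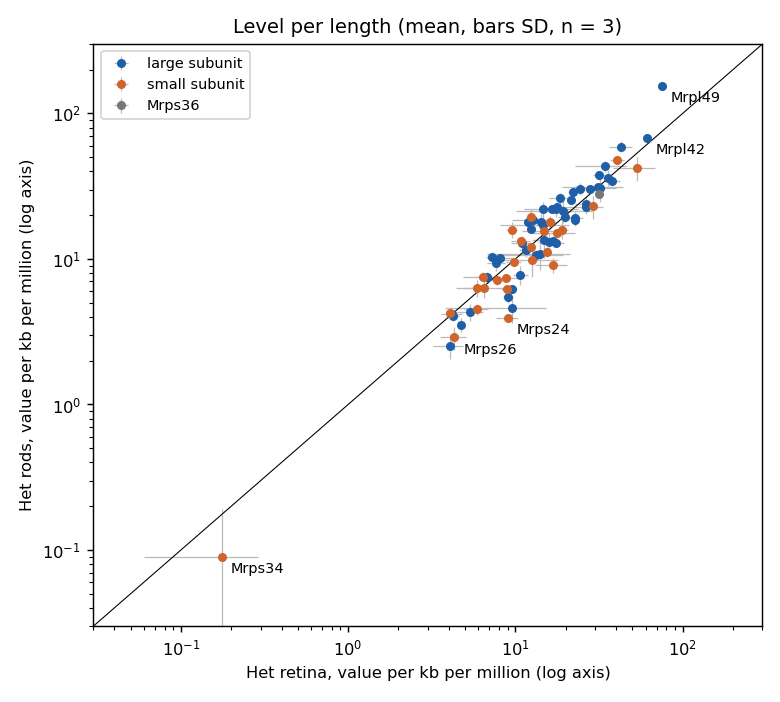
Level of each gene in Het rods (vertical, log axis) against Het retina (horizontal, log axis), as the deposited value per kilobase of transcript at a common library total, mean of 3 libraries with SD bars, coloured by subunit. The points follow the line of equal levels, with Mrpl49 highest, Mrps34 far below the others and Mrps24 under the line; Mrpl53, at 0, cannot be drawn.

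Replicates were close. The median coefficient of variation of the 76 genes over the 3 libraries of a group was 11.7% in Het retina, 11.6% in KO retina, 9.35% in Het rods and 8.69% in KO rods, and over all genes with values past the filter it was 19.96%, 18.8%, 11.4% and 10.3%. The most variable in Het retina was Mrpl4 at 60.1%, and in KO retina Mrpl14 at 60.7%.

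With TMM scaling, many mitochondrial ribosomal protein mRNAs stood higher in rod TRAP than in whole retina. In Het mice 30 of the 76 genes tested were higher in rod TRAP than in retina (39.5%) at a limma adjusted p under 0.05 and a log2 fold change beyond 0.5, and 1 was lower. Of all 16110 genes tested in this comparison, 22.7% were higher and 36.4% were lower by the same limits. The median log2 fold change was 0.44 over the 76 genes and -0.08 over all genes tested. A positive log2 fold change was seen in 66 of the 76, and in 7621 of all 16110 genes tested. With library totals in place of TMM factors, 8 genes were higher and 7 lower in Het mice (all genes, 7.25% and 45.9%).

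Mrpl49 rose most with TMM scaling. Het retina had deposited values of 1984, 1809 and 1954, against 4378, 4403 and 4481 for Het rods, a log2 fold change of 1.49 (SE 0.10, limma adjusted p = 4.0e-06). The groups lay far apart. With each library corrected for its trend over GC content, Mrpl54 (1.53, SE 0.11) stood above Mrpl49 (1.37, SE 0.08). Mrps28, a small-subunit protein, rose from 116, 108 and 100 to 174, 210 and 223 (log2 fold change 1.16, SE 0.18). Mrps22, a small-subunit protein found in mitochondria only and a gene of inherited mitochondrial disease, rose from 210, 207 and 233 to 435, 356 and 342 (1.07, SE 0.16). In both the lowest rod value was above the highest retina value.

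Next came large-subunit proteins specific to mitochondria. Mrpl43 had values of 249, 233 and 239 in Het retina and 393, 380 and 456 in Het rods (log2 fold change 1.04, SE 0.14), with 33.4% of its exon bases shared with Twnk, the mitochondrial DNA helicase gene on the opposite strand. Mrpl39 had values of 499, 443 and 521 in Het retina and 817, 730 and 927 in Het rods (1.03, SE 0.13). Neither gene overlapped between the fractions.

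The 1 gene that fell was Mrps24, the counterpart of a bacterial small-subunit protein. Its values were 125, 151 and 114 in Het retina and 60, 64 and 67 in Het rods (log2 fold change -0.73, SE 0.21, limma adjusted p = 0.015). The groups did not overlap, but without Het rod replicate 1 the adjusted p was 0.052, also 0.052 without Het retina replicate 1, and Mrps24 shares 15.4% of its exon bases with Urgcp on the same strand. In KO mice its retina values of 130, 81 and 203 overlapped the rod values of 74, 93 and 78.

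**Figure D2:**
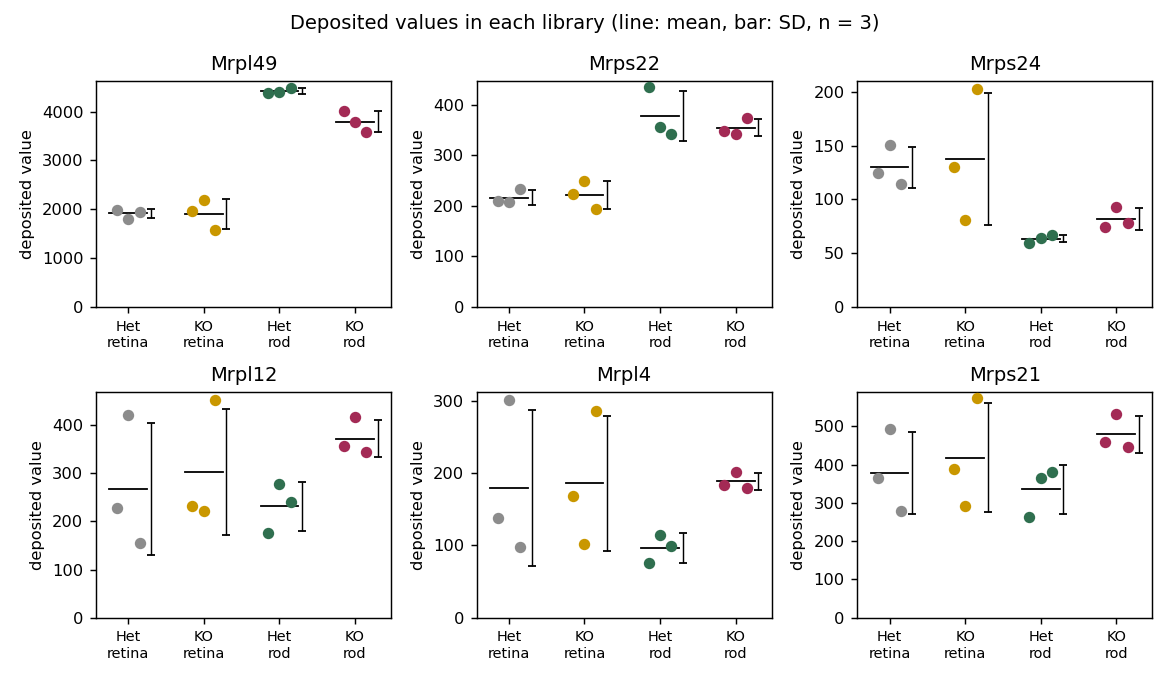
Deposited values of 6 genes in each of the 12 libraries, by group, with the mean as a line and the SD (n = 3) as a bar at its right. Mrpl49 and Mrps22 are higher and Mrps24 is lower in rod TRAP of Het mice than in their retina, while Mrpl12, Mrpl4 and Mrps21 are higher in KO than in Het rods and spread widely in retina.

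Split by subunit, 23 of 50 large-subunit genes (46.0%) were higher in rods of Het mice and 0 were lower, with a median log2 fold change of 0.53. Of the small-subunit genes 7 of 25 were higher and 1 was lower, with a median of 0.33, against 22.7% higher among all genes tested. Of the genes for proteins with a bacterial counterpart 13 of 45 (28.9%) were higher (median 0.39), and of those for proteins of mitochondria only 16 of 27 (59.3%, median 0.59). Mrpl55, Mrps18a, Mrps18b and Mrps36 were left out of this split as unsettled. In KO mice the classes lay closer together. There 28 of 50 large-subunit genes (56%, median 0.61) and 12 of 25 small-subunit genes (48%, median 0.47) were higher. So were 22 of 45 with a bacterial counterpart (48.9%, median 0.51) and 17 of 27 of mitochondria only (63.0%, median 0.62), against 26.9% of all genes tested. The differences between these classes were not tested, and the counts were taken without removal of the GC trend of each library. Of the 28 genes higher in Het mice with this trend removed, only Mrps7, Mrps18b, Mrps22 and Mrps28 were of the small subunit. Without removal, 7 of 24 genes with GC content above 52.6% were higher in Het mice and 16 of 24 in KO mice. For genes below 47.4% the counts were 11 and 9 of 26, and for those between these limits 12 and 15 of 26.

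Proteins of the stalk and of the tunnel exit of the large subunit were split. The ribosomal stalk, which recruits translation factors, is built on Mrpl10 and Mrpl11 with Mrpl12 on top. In Het mice Mrpl11 rose by a log2 fold change of 0.67 (SE 0.16), while Mrpl10 at 0.10 (SE 0.14) and Mrpl12 at 0.17 (SE 0.36) did not pass the test. Mrpl12 had values of 227, 421 and 155 in Het retina and 176, 277 and 241 in Het rods, which overlap widely. Around the exit of the tunnel, where new proteins meet the inner membrane, Mrpl22 (0.78, SE 0.19), Mrpl44 (0.99, SE 0.20) and Mrpl45 (0.81, SE 0.13) rose, and Mrpl23 (0.40, SE 0.24) and Mrpl24 (0.18, SE 0.16) did not pass. Mrpl58, a peptidyl-tRNA hydrolase built into the large subunit, was at 0.44 (SE 0.15, limma adjusted p = 0.029), short of the fold limit.

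Mrpl45, which ties the ribosome to the inner membrane, had values of 616, 697 and 565 in Het retina and 854, 927 and 936 in Het rods. In KO mice they were 661, 612 and 595 in retina and 994, 1019 and 1006 in rods. The fractions were apart in both genotypes.

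The related genes Mrps18a, Mrps18b and Mrps18c all descend from 1 bacterial small-subunit protein, but only Mrps18c was counted as its counterpart here. Mrps18b of the small subunit rose (0.69, SE 0.23) in Het mice, whereas Mrps18c of the small subunit at 0.23 (SE 0.22) and Mrps18a of the large subunit at 0.25 (SE 0.21) did not pass. The call on Mrps18b was lost when any single Het rod library was left out, with adjusted p values of 0.054, 0.101 and 0.071 from limma. Mrps12, a part of the decoding centre, was at 0.21 (SE 0.21), and Mrps30 of the large subunit rose (0.73, SE 0.15). Mrps36 was at 0.27 (SE 0.13), with deposited values of 315, 311 and 336 in retina and 318, 320 and 321 in rods.

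In KO mice, whose libraries are separate from those of the Het mice, 40 of 76 genes were higher in rods than in retina (52.6%) and 1 was lower, against 26.9% higher and 36.1% lower among all 16121 genes tested. The median log2 fold change was 0.53, and 0.01 over all genes tested. The genes higher in both genotypes numbered 26, which is 86.7% of those in Het and 65.0% of those in KO mice. Mrpl42, Mrpl47, Mrpl50 and Mrps35 were higher by these limits in Het mice and not in KO mice, and 14 genes the other way round. Mrps35 was at 0.44 in Het mice without Het rod replicate 1, below the fold limit, and with the GC trend removed all 4 were below it in Het mice (0.41, 0.37, 0.27 and 0.41). For no gene did the test of the genotype difference itself pass.

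Mrpl49 again had the highest log2 fold change, with 1968, 2182 and 1574 in KO retina and 4021, 3781 and 3590 in KO rods (log2 fold change 1.40, SE 0.13, limma adjusted p = 2.6e-05). With the GC trend removed Mrpl54 was at 1.43 (SE 0.14) and Mrpl49 at 1.39 (SE 0.09). Mrpl14 (1.30, SE 0.41), Mrpl54 (1.29, SE 0.32), Mrpl34 (1.28, SE 0.30) and Mrpl2 (1.21, SE 0.22) followed, all of the large subunit. These 4 were uneven in retina: Mrpl14 had values of 163, 72 and 265 in KO retina and 237, 310 and 285 in KO rods, which overlap, and lost its call without KO rod replicate 2 or 3 or KO retina replicate 1 (limma adjusted p = 0.067, 0.057 and 0.057).

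Among the stalk genes, Mrpl11 (0.86, SE 0.13) and Mrpl12 (0.77, SE 0.28) were higher in rods of KO mice and Mrpl10 was at 0.12 (SE 0.14). Mrpl12 passed by a narrow margin and was lost with any 1 KO rod library left out, or KO retina replicate 1 or 2 (limma adjusted p between 0.064 and 0.16). Mrpl22 (0.92, SE 0.16), Mrpl23 (0.72, SE 0.20), Mrpl44 (1.13, SE 0.18) and Mrpl45 (1.09, SE 0.10) of the tunnel exit rose, and Mrpl24 at 0.46 (SE 0.13) fell short of the fold limit.

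Mrps15, the counterpart of a bacterial small-subunit protein, fell in KO mice. Its values were 183, 213 and 203 in retina and 103, 98 and 85 in rods (log2 fold change -0.66, SE 0.18, limma adjusted p = 0.010), and the groups did not overlap. In Het mice they were 203, 197 and 285 in retina and 152, 120 and 145 in rods, with a log2 fold change of -0.42 (SE 0.21, limma adjusted p = 0.11).

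The direction of these changes is relative to the scaling. With library totals in place of TMM factors the median of all genes moved by -0.43 for Het and -0.55 for KO mice, to -0.51 and -0.55, and the median of the 76 genes became -0.00 and -0.03. On that scale 8 genes were higher and 7 lower in Het mice (all genes, 7.25% and 45.9%), and 5 higher and 8 lower in KO mice (7.1% and 48.7%). The median of the 76 genes lay 0.51 and 0.52 above that of all genes in Het and KO mice, with library totals as with TMM. In KO against Het rods library totals gave 6 genes higher and 1 lower (all genes, 9.21% and 4.47%). With the GC trend of each library, described below, removed, 28 were higher and 2 lower in rods than in retina of Het mice (all genes, 22.8% and 37.5%) and 39 and 1 for KO mice (27.9% and 36.6%). Of the 31 Het calls 22 were kept and 9 lost, with 8 other genes called, and of the 41 KO calls 37 were kept, with 3 others called. Mrps30 was among those lost in Het mice (0.48, SE 0.12).

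**Figure D3:**
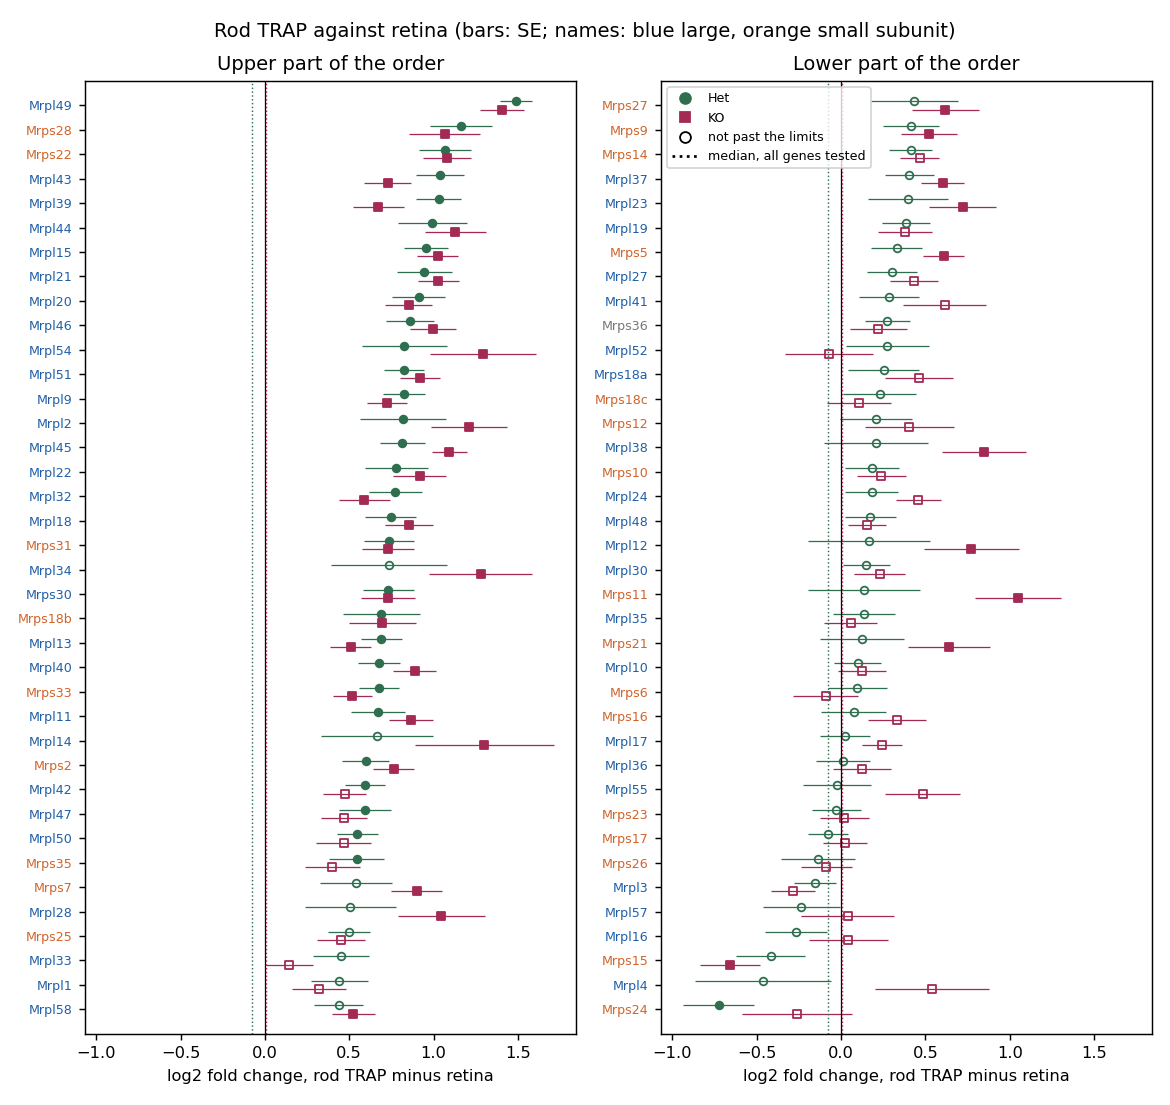
Log2 fold change of rod TRAP against retina (horizontal) for each of the 76 genes tested, with SE bars, in Het (circles) and KO mice (squares), ordered by the Het value over both panels; filled symbols passed the limits and dotted lines mark the medians of all genes tested. Most genes of both subunits lie right of these lines, with Mrpl49 at the top and Mrps24, Mrpl4 and Mrps15 at the bottom.

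Other genes of mitochondrial gene expression were read by list, beside shares of 22.7% higher in Het and 26.9% higher in KO mice among all genes tested. Of 5 mitochondrial ribosomal proteins with other symbols, 2 rose in each genotype, among them Dap3, a GTP-binding protein of the small subunit (Het 0.51, SE 0.14, KO 0.63, SE 0.13). Chchd1 (0.64, SE 0.15) rose in Het and Aurkaip1 (0.87, SE 0.21) in KO mice. Of 23 genes for assembly of the ribosome and modification of its RNA, 12 rose in Het mice, and 16 rose and 1 fell in KO mice. In Het mice these were led by Noa1, a GTPase needed for the small subunit, at 0.92 (SE 0.15), followed by the ribosomal RNA methyltransferase Tfb1m at 0.81 (SE 0.22), and in KO mice by the helicase Dhx30 at 1.15 (SE 0.17) and Noa1 at 1.12 (SE 0.14).

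Of 16 translation factors, 6 rose and 1 fell in Het mice, and in KO mice 7 rose and 1 fell. Gfm1, the elongation factor that moves the ribosome along, rose by 1.14 (SE 0.11) and 1.20 (SE 0.14), the initiation factor gene Mtif2 by 1.07 (SE 0.13) in Het mice, and Tufm, which brings aminoacyl-tRNAs, by 1.27 (SE 0.20) in KO mice. Of 20 genes for mitochondrial aminoacyl-tRNA synthesis, 9 and 11 rose and Mars2, for methionine, fell by 1.14 (SE 0.14) and 1.15 (SE 0.20) on the log2 scale. Of 10 genes for mitochondrial transcription and mRNA handling, 6 and 7 rose and Mterf1a fell by 1.32 (SE 0.23) and 1.19 (SE 0.23). The risers included the transcription factor gene Nrf1 (1.09, SE 0.17, and 1.23, SE 0.12) and its coactivator Ppargc1a (1.14, SE 0.13, and 1.10, SE 0.13).

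Messages made in mitochondria are translated there, by ribosomes that hold no Rpl22. The 15 mitochondrially encoded RNAs all fell in both genotypes, with median log2 fold changes of -6.11 in Het and -6.09 in KO mice.

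Between KO and Het rods, mitochondrial ribosomal protein genes changed about as often as other genes. In KO rods 9 of 76 genes were higher (11.8%) and 0 were lower by the limma limits, against 12.1% and 1.55% of all 13055 genes tested, and 25 of the 76 had an unadjusted p under 0.05, as did 4919 of all genes tested. The median log2 fold change was 0.08 over the 76 genes and 0.01 over all genes. This comparison shares its Het and KO rod libraries with the rod and retina comparisons above.

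Mrpl4, the counterpart of a bacterial large-subunit protein, rose most. From Het to KO rods it went from deposited values of 75, 115 and 99 to 184, 202 and 180, a log2 fold change of 1.08 (SE 0.18, limma adjusted p = 0.0031). The next were Mrps11, from 140, 213 and 150 to 234, 359 and 245 (0.83, SE 0.21), and the stalk gene Mrpl12, from 176, 277 and 241 to 356, 416 and 344 (0.81, SE 0.17). In these 3 genes the lowest KO rod value lay above the highest Het rod value.

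Mrpl38 rose from 221, 266 and 241 to 354, 405 and 346 (0.71, SE 0.13) and Mrpl28 from 519, 588 and 518 to 756, 957 and 737 (0.69, SE 0.12). Neither gene overlapped between the genotypes. The other 4 were Mrpl34 (0.66, SE 0.21), Mrps21 (0.63, SE 0.15), Mrps7 (0.55, SE 0.11) and Mrpl2 (0.51, SE 0.13), which are named here because the count is small. Of the 9 genes 6 belong to the large subunit and 3 to the small, and 8 have a bacterial counterpart, Mrpl38 being the exception. These are 6 of 50 large-subunit (12%) and 3 of 25 small-subunit genes tested (12%). By the other split they are 8 of 45 with a bacterial counterpart (17.8%) and 1 of 27 of mitochondria only (3.70%). Of all genes tested 12.1% were higher, and differences between the classes were not tested.

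Calls leaned on Het rod replicate 1 and KO rod replicate 2, among these genes as among all genes tested. Het rod replicate 1 had the lowest value of the Het rods in each of Mrpl4, Mrps11, Mrpl12 and Mrps21. Without it 4 of the 76 genes passed, Mrpl4, Mrpl12, Mrpl38 and Mrpl28, and these passed whichever rod library was left out. Of all genes tested, 975 of 13360 were higher without Het rod replicate 1, against 1579 of 13055 with every library. Without KO rod replicate 2, 6 of the 76 genes passed and 953 of all 13456 genes were higher. The median log2 fold change of the 76 genes was then -0.002. When all 12 libraries were fitted together, 0 of the 76 genes passed by limma, with 14 at an unadjusted p under 0.05, and 0 of all genes passed.

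All 9 genes were GC rich, and the libraries of the genotypes differed in their trend with GC content. GC content of the longest transcript was 52.7% to 60.1% in the 9 genes, and the median of the other 67 was 49.4%. With the 78 genes split by GC content at 47.4% and 52.6% into 3 groups of 26, 9 of the 24 tested genes of the high group were higher in KO rods and 0 of 26 in each of the other groups. Across the 76 genes the Spearman correlation of GC content with the log2 fold change was 0.59, and across the 12907 tested genes with known GC content it was 0.70, as a description over genes that share the same libraries.

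A library's GC trend is the median log2 deviation of the 10% of genes highest in GC content less that of the 10% lowest. It was -0.81, -0.23 and -0.42 for the Het rod libraries and 0.42, 0.76 and 0.28 for the KO rod libraries. These do not overlap, so that the GC trend and the genotype cannot be told apart in rods. In retina the trend was -0.24, 0.86 and -0.84 for Het and 0.01, -0.63 and 0.90 for KO libraries, which are intermixed. To remove the trend, a curve of the deviations over GC content was subtracted from each library before the fit. Mrps21 alone of the 9 genes then passed (log2 fold change 0.55, SE 0.13, limma adjusted p = 0.022). Mrps15 was lower (-0.62, SE 0.16, limma adjusted p = 0.026), against 2.74% higher and 0.781% lower over all genes. Mrpl12 was then at 0.44 (SE 0.12, limma adjusted p = 0.037), short of the fold limit, Mrps11 at 0.55 (SE 0.17, limma adjusted p = 0.058) and Mrpl4 at 0.41 (SE 0.14, limma adjusted p = 0.074). The remaining 5 genes were between 0.03 and 0.24. After this step the correlation of GC content with the log2 fold change over the 76 genes was -0.30, so that the sign turned.

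**Figure D4:**
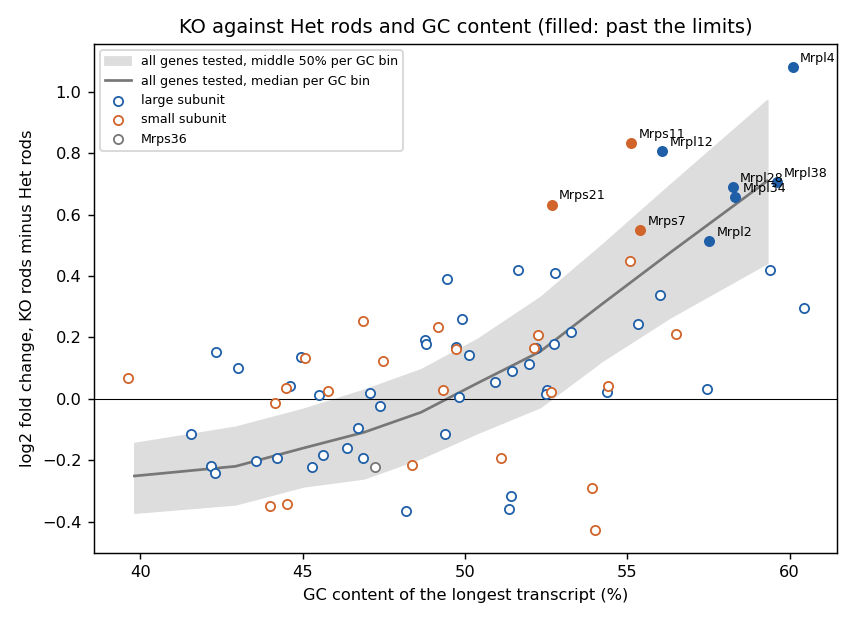
Log2 fold change of KO against Het rods (vertical) against the GC content of the longest transcript (horizontal, %) for the 76 genes, with the median and the middle 50% of all genes tested in 10 equal bins of GC content as a line and a band. The 9 filled, named genes lie between 52.7% and 60.1% GC, where the line for all genes rises as well.

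**Figure D5:**
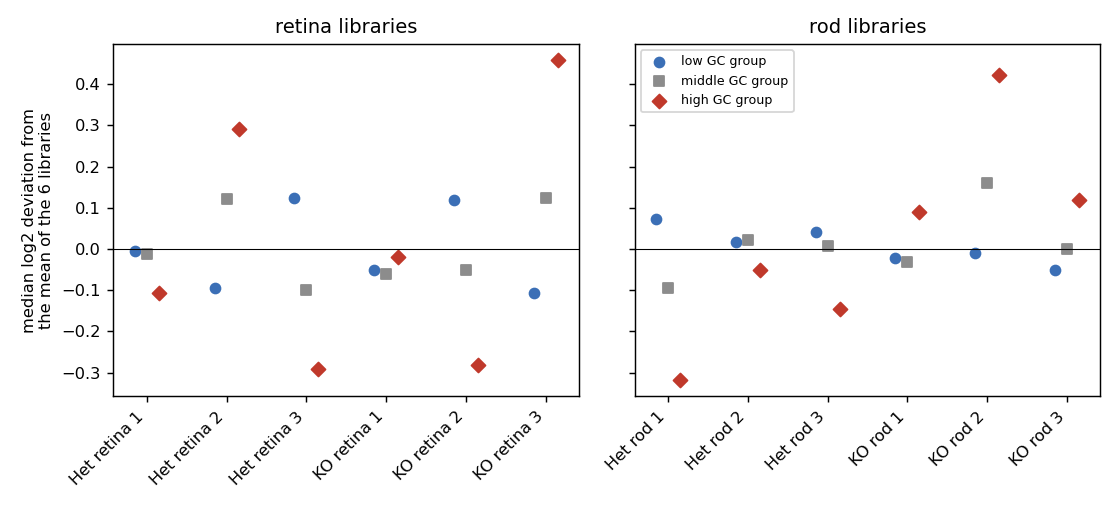
Median log2 deviation of the genes of the low, middle and high GC group in each library from the mean of the 6 libraries of its fraction. In rods the high group lies below 0 in all 3 Het libraries and above 0 in all 3 KO libraries, whereas in retina both genotypes hold libraries on either side.

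Genes whose 3 KO rod values all lay above all Het rod values numbered 19 of the 76, against 25.3% of all genes tested, and those with all KO values below numbered 10 (13.2%, against 18.3%). Among those named above for their role, Mrps18c was at -0.34 (SE 0.13), Mrpl24 at 0.39 (SE 0.12), Mrpl45 at 0.26 (SE 0.08) and Mrpl10 at 0.03 (SE 0.12) in KO against Het rods, and none passed both limits. Mrps15, whose rod values are given above, did not overlap between the genotypes, with a log2 fold change of -0.43 (SE 0.16, limma adjusted p = 0.079).

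Related lists gave similar counts, beside shares of 12.1% higher and 1.55% lower among all genes tested. These lists were read without removal of the GC trend, which cannot be told apart from the genotype in rods. Higher in KO rods were 1 of 5 ribosomal proteins with other symbols (Aurkaip1, 0.51, SE 0.14, as read from limma), 3 of 23 assembly genes, 2 of 16 translation factors, 3 of 20 genes for aminoacyl-tRNA synthesis and 1 of 10 for transcription and mRNA handling. The last was Polrmt, the mitochondrial RNA polymerase gene, with the largest change of these lists (1.44, SE 0.26). Tufm (0.71, SE 0.11) and its exchange factor gene Tsfm (0.52, SE 0.15) rose, as did the methyltransferase gene Mrm2 (0.95, SE 0.21) and Sars2, for serine (0.93, SE 0.26). Malsu1, an assembly factor of the large subunit, fell by 0.52 (SE 0.16) and Nars2, for asparagine, fell by 0.52 (SE 0.17) on the log2 scale. Of the 15 mitochondrially encoded RNAs 0 passed, and their medians were -0.20.

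In whole retina the genotypes were not told apart for any of these genes. None of the 76 passed in limma (background 0 of 16863 genes, 0%), 0 had an unadjusted p under 0.05, against 140 of all genes, and the log2 fold changes ran from -0.22 to 0.40. The KO values lay entirely above the Het values in 1 gene and entirely below in 4, with 1.75% and 1.76% of all genes doing so. Mrpl12, one of the widest, stood at 227, 421 and 155 for Het and 231, 222 and 453 for KO retina. The 95% interval of its log2 fold change ran from -0.75 to 1.21, so that a change of the size seen in rods would lie inside it.

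The KO effect in rods less that in retina, tested as an interaction over all 12 libraries, passed for 0 of the 76 genes in limma (background 0%). At an unadjusted p under 0.05 it passed for 0 of the 76 and for 517 of all 17192 genes tested. The smallest unadjusted p was 0.067, for Mrps11, with an adjusted p of 0.89.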

How the data were processed

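Samples were grouped by the titles in their records. The authors deposited 1 table of whole numbers per gene, used here as a signal proportional to reads, since totals within a fraction agree and low integers are unevenly filled. This scaling was read from the values, and it gave no factor for replicate 3 of Het retina (error of the factor 0 in 6 simulated libraries). The submitters' processing notes name CASAVA 1.8.2, HISAT2, DESeq2, edgeR and build GRCm39 without roles, and the annotation and strand of counting are not given in the sources used here.

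Genes with a value of about 10 in at least 3 libraries (as many as the smallest group) and a sum of at least 15 were scaled by TMM and transformed as log2(value + 2), which understates changes of low genes. Groups were compared with limma 3.58.1 (trend and robust options, R 4.3.3) with Benjamini-Hochberg adjustment over all genes tested, and called at an adjusted p under 0.05 and a log2 fold change beyond 0.5. A count model, allowed for in the first design, was not used because the values are scaled. The study's removal of rod-depleted genes was an alternative. An exact permutation test of 3 against 3 could not go below p = 0.1. On simulated data for KO against Het rods (200 of 13050 genes changed by a log2 fold change of 1), 100% were recovered with 2 false calls. The changed genes were drawn from those with higher values, and all genes had the same dispersion (0.0069). No GC trend was simulated, so that this gives no error rate for the calls in the real libraries.

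Replicate numbers may pair Het rods with Het retina, where same-numbered libraries deviated together (r = 0.47, 0.41 and 0.25). No label says that same-numbered libraries share mice. GC content and transcript lengths came from GENCODE M21 (GRCm38), and GC content was known for 98.9% of genes tested in rods. Python 3.11.15 made the tables.

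The genes, lists, motifs and tests were chosen with earlier results of these data known. Genes named have a set role in the ribosome, are among the 5 largest rises or falls of a comparison, the 3 highest or lowest per length, at or near 0, or among 4 per related list. Mrps26, Mrpl47, Mrpl50, Mrps35, Mrpl34, Mrps21, Mrps7 and Mrpl2 among the calls, the neighbouring genes, and Mrps15 outside its own call were added after their values were seen.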

Additional observations from a re-analysis of the deposited data

How the results depend on the processing

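Counts of called genes kept their direction and stayed within 1.5 times under another pseudocount, size factors by median of ratios and no filter on low values. Library totals in place of TMM gave 8 higher and 7 lower in Het rods against retina, 5 and 8 in KO rods against retina, and 1 lower in KO against Het rods, and turned Mrpl13 (-0.0529), Mrpl58 (-0.0378), Mrps33 (-0.0431) and Mrps9 (-0.0390) in KO rods against retina. With the GC trend removed, 2 were lower in Het rods against retina (all genes, 6045 of 16110), also with the replicate block added (6140). In KO against Het rods 1 was then higher and 1 lower (all genes, 358 and 102 of 13055), or 2 and 1 with the block (398 and 113). In KO against Het rods limma without its trend and robust options gave 5 higher (all genes, 1084 of 13055). There the fit of all 12 libraries gave 0 (all genes, 0 of 17192), and no fold limit gave 3 lower (all genes, 915 of 13055). Without mitochondrially encoded genes the share was 0.212% in Het and 0.209% in KO retina. Causes were not tested.

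Leaving out 1 library gave 27 to 44 higher and 0 to 1 lower in Het rods against retina, and 31 to 43 and 1 to 1 in KO. It gave 4 to 10 higher and 0 lower in KO against Het rods, and 0 in retina and in the interaction. In the fits behind each lowest and highest count of higher genes, all genes had 3135 of 16890 and 4318 of 16665 higher in Het. They had 3720 of 16646 and 4368 of 16746 in KO, and 975 of 13360 and 1623 of 13453 in KO against Het rods. The replicate block gave 34 higher and 1 lower in Het rods against retina (all genes, 3890 and 6056 of 16110), with all 31 calls kept. It gave 39 higher in KO (all genes, 4187 of 16121), where a pairing was not clear (r = 0.33, -0.01 and 0.18). In KO against Het rods it gave 9 higher (all genes, 1679 of 13055). A same-numbered pairing was not seen in rods (r = 0.18, 0.03 and 0.03) or retina (0.40, -0.59 and -0.14).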
